A study of Homo sapiens with 19 samples.

Results

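Total RNA sequencing of HepaRG cells depleted of ADAR was set directly against that of HepaRG cells depleted of ADARB1. The rule took the 3 siADAR libraries and the 3 siADARB1 libraries of the first batch, which are 6 of the 19 libraries of the series, and left the control siRNA out of the contrast. HepaRG is an established human hepatic carcinoma line that was differentiated before transfection, a state in which hepatocyte-like and biliary-like cells grow side by side. The siADAR cells received 20 nM of a Silencer Select siRNA against ADAR, the siADARB1 cells received 20 nM of a Silencer Select siRNA against ADARB1, and the siNC cells received 20 nM of the negative control siRNA. All were transfected with Lipofectamine RNAiMAX, moved to fresh differentiation medium at 24 h and to a serum-free medium at 48 h. Each target was depleted with a single siRNA, so a value below belongs to that siRNA and was not checked with another sequence. The labels do not say whether the 3 libraries of a group came from separate cultures, so the p-values measure the spread between these libraries, which may be technical.

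ADAR and ADARB1 encode the adenosine deaminases ADAR1 and ADAR2, which convert adenosine to inosine in double-stranded RNA. ADAR1 is known for editing the inverted repeats in the cell's own transcripts, which keeps the sensor MDA5 and the kinase PKR from treating them as viral RNA, while ADAR2 is known for recoding single codons, above all in neuronal receptors. Cells that sense double-stranded RNA signal through MAVS to interferon genes, and interferon then acts through factors such as STAT2 and IRF9 on genes that carry an interferon-stimulated response element in their promoters.

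Each siRNA lowered its own target. ADAR (ENSG00000160710.19, RefSeq GRCh38.p14 chr1:154582057-154627997) had 58.5, 56.5 and 65.5 CPM (counts scaled to library size) in the siADAR libraries, against 247, 244 and 249 CPM in the siADARB1 libraries. ADARB1 (ENSG00000197381.18, chr21:45074578-45226563) had 27.0, 23.5 and 25.04 CPM after siADAR, against 10.2, 9.48 and 10.5 CPM after siADARB1. The groups did not overlap for either gene, and the fitted log2 difference, siADAR minus siADARB1, was -2.03 ± 0.05 (SE) for ADAR (edgeR adjusted p = 4.98e-11) and 1.32 ± 0.07 for ADARB1 (adjusted p = 1.09e-08). Beside the 3 siNC libraries of the same batch, ADAR stood at -2.01 after siADAR and 0.02 after siADARB1, and ADARB1 at -0.26 after siADAR and -1.59 after siADARB1. ADARB2, the family member without known editing activity, averaged 4.86 ± 0.19 CPM after siADAR and 7.35 ± 0.87 CPM after siADARB1 (SD, n = 3 each; log2 difference -0.60 ± 0.10, adjusted p = 0.000541).

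Library totals were 47.7 M to 56.3 M counts after siADAR and 42.7 M to 64.3 M counts after siADARB1. Of 20754 genes tested, 7774 (37.5%) differed between the knockdowns at an adjusted p under 0.05 in edgeR's quasi-likelihood test, 4096 (19.7%) of them higher and 3678 (17.7%) lower after siADAR, and a gene called higher or lower below met that threshold. Most differences were small, with 8.39% of the called genes differing by 2-fold to 4-fold and 1.6% by 4-fold or more. A call with a difference of at least 2-fold was made for 776 of the tested genes (3.74%), 501 (2.41%) higher and 275 (1.33%) lower. In 10097 genes (48.7%) the groups did not overlap in CPM. Among 13855 protein-coding genes 48.6% were called, and counts of list members below are to be read beside these shares. Tested against a difference of 1.5-fold, 719 genes (3.46%) were called, of which 464 (2.24%) were higher and 255 (1.23%) lower. A fit that took in all 19 libraries, the second batch among them, called 2288 higher and 2230 lower, and where it (the 19-library fit) moved a count of list members by over 1.5-fold its count is given beside that list. Replicates within a group were close, with a common biological coefficient of variation of 6.26%, and the first principal component, which held 58.2% of the variance, placed all 3 siADAR libraries on one side and all 3 siADARB1 libraries on the other.

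Interferon-stimulated genes were higher after siADAR. Of 52 antiviral effectors listed, all were tested, 48 were higher after siADAR and none lower, 24 of them by at least 2-fold, with a median log2 difference of 0.98 beside -0.01 over all genes tested. Their summed level was 3100 to 3782 CPM after siADAR, against 1961 to 1974 CPM after siADARB1. The 4 members that were not called were TRIM14 (0.10), IFITM3 (0.09), IFITM2 (0.08) and TRIM5 (0.06).

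The promoters of this group were searched for the interferon-stimulated response element. The motif searched was GAAA, any 2 bases and GAAA again, read on both strands in the window from 250 bases before to 50 after the RefSeq start site (GRCh38.p14). It was present in 1195 of 27305 genes with a window (4.38%). Among the antiviral effectors 40 of 52 had a window, and 29 of those 40 (72.5%) held the motif, 12 of them more than once. Members with the motif had a median log2 difference of 0.97 and members without it 1.00. A match is a description of the letters and does not show binding. The upstream part of 3 windows is shown as an example of such matches. Each is on the plus strand, and capitals mark the motif or its reverse complement. In ISG15 (chr1:1013247-1013496) a pair of overlapping matches begins 113 and 107 bases before the start, in IFIT1 (chr10:89392373-89392622) the matches lie on the minus strand at 116 and 103 bases, and in IFI44L (chr1:78620198-78620447) the same 10-base match recurs at 164 and 73 bases.
ISG15: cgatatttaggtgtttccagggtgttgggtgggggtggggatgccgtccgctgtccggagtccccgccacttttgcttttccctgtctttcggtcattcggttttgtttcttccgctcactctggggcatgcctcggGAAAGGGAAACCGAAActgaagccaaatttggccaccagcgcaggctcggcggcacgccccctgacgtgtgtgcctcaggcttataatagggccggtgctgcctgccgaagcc
IFIT1: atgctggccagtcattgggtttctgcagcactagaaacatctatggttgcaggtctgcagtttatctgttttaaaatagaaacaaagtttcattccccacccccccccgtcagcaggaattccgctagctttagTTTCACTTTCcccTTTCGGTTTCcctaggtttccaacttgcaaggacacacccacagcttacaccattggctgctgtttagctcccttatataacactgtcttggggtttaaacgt
IFI44L: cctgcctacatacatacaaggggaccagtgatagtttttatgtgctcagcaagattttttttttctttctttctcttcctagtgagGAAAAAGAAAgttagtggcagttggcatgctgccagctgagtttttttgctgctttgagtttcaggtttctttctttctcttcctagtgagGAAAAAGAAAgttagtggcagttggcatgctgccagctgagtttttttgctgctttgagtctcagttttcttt

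MX1, a dynamin-like GTPase that blocks viral nucleocapsids, had 101, 135 and 163 CPM after siADAR, against 10.2, 9.15 and 9.58 CPM after siADARB1. The lowest siADAR library stood far above the highest siADARB1 library, and the log2 difference was 3.78 ± 0.15 (adjusted p = 1.16e-09). Its paralogue MX2 had 9.74, 12.8 and 15.5 CPM after siADAR, against 0.432, 0.569 and 0.735 CPM after siADARB1 (4.49 ± 0.21, adjusted p = 5.09e-09). IFIT1, which binds viral RNA with an unmethylated cap, had 57.4, 63.9 and 98.7 CPM after siADAR, against 6.60, 7.34 and 7.35 CPM after siADARB1 (3.37 ± 0.18). IFI44L, whose expression is a common measure of interferon exposure, had 22.6, 26.9 and 36.4 CPM after siADAR, against 2.10, 2.44 and 3.03 CPM after siADARB1 (3.53 ± 0.17). In all of these the groups were well apart. The SD in CPM was larger among the siADAR libraries, whose means were also higher, and spread relative to the mean was not compared. Among the 2'-5'-oligoadenylate synthetases and their relatives, which activate RNase L or RIG-I, the log2 differences were 3.91 for OASL, 2.92 for OAS2, 2.50 for OAS3 and 2.22 for OAS1. RSAD2, which encodes viperin, gave 570 counts over the siADAR libraries and 1 count over the siADARB1 libraries, a ratio of 615 after scaling to library totals with an exact 95% interval of 110 to 24300 for counting error only. CMPK2, a mitochondrial nucleotide kinase that lies beside it in the genome, averaged 1.33 ± 0.81 CPM after siADAR and 0.0863 ± 0.0619 CPM after siADARB1, and its log2 difference of 3.86 became 3.25 without siADAR replicate 3 and 4.68 without siADARB1 replicate 1. The fitted log2 difference of RSAD2, 8.80, became 10.70 without siADARB1 replicate 3, which held its single count.

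**Figure D1:**
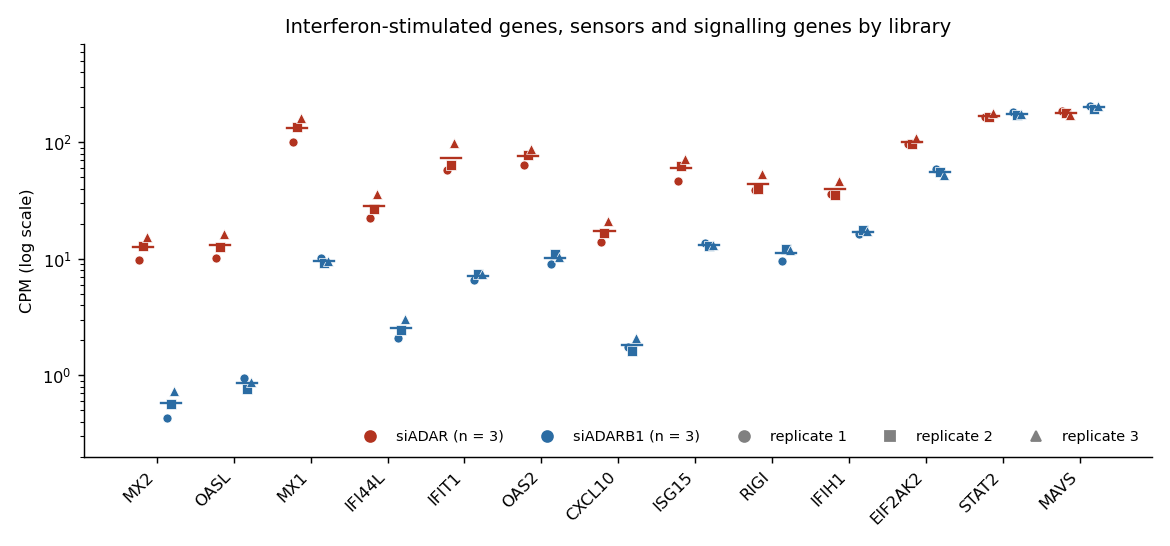
CPM on a log axis for 13 genes of the interferon response, its sensors and its signalling chain in the 3 siADAR libraries and the 3 siADARB1 libraries, with a marker shape for each replicate and a line at the group mean. MX1 averages 133 CPM after siADAR and 9.66 CPM after siADARB1, while STAT2 averages 170 CPM after siADAR and 177 CPM after siADARB1.

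The siADAR libraries kept an order among themselves in these genes. Replicate 3 of siADAR was the highest of its group in 47 of the 52 effectors (90.4%) and replicate 1 the lowest in 43 (82.7%), beside 31.7% and 34% of all genes tested, whereas among the siADARB1 libraries the highest value fell in replicate 1 for 14 effectors, in replicate 2 for 19 and in replicate 3 for 19. ADAR itself stood at 58.5, 56.5 and 65.5 CPM in siADAR replicates 1, 2 and 3. Whether that order follows the depth of the knockdown was not tested.

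The conjugation system of ISG15 and the cytosolic RNA sensors were mostly higher. ISG15, the ubiquitin-like modifier of the response, had 46.5, 62.4 and 72.2 CPM after siADAR, against 13.7, 12.9 and 13.2 CPM after siADARB1 (2.18 ± 0.12, adjusted p = 2.87e-08). HERC5, its main ligase in human cells (1.78), the related HERC6 (2.38) and its protease USP18 (0.97) were also higher. Of the 7 listed genes 6 were higher, and ARIH1, an E3 ligase, was lower (-0.18), a call that was lost in the 19-library fit (adjusted p = 0.112). Of 20 listed sensors and adaptors 17 were tested, and 12 were higher and 1 lower, with a median of 0.63. RIGI, which senses uncapped RNA ends, had 38.9, 39.8 and 53.1 CPM after siADAR, against 9.58, 12.1 and 11.8 CPM after siADARB1 (1.98 ± 0.12, adjusted p = 3.89e-08). IFIH1, which encodes MDA5, had 36.2, 35.6 and 46.5 CPM after siADAR, against 16.2, 17.8 and 17.2 CPM after siADARB1 (1.21 ± 0.09). EIF2AK2, which encodes PKR, had 97.8, 97.2 and 108 CPM after siADAR, against 58.8, 55.3 and 52.8 CPM after siADARB1 (0.86 ± 0.05). All of these groups were apart. MAVS, the mitochondrial adaptor that RIG-I and MDA5 share, was lower, with 186, 178 and 173 CPM after siADAR, against 205, 195 and 205 CPM after siADARB1 (-0.17 ± 0.04, adjusted p = 0.00444, and 0.216 in the 19-library fit).

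Members of the interferon signalling chain differed in both directions. The interferon regulatory factors IRF7 (1.72 ± 0.11) and IRF9 (1.65 ± 0.07) were higher. STAT2, which binds IRF9, had 166, 165 and 178 CPM after siADAR, against 183, 172 and 176 CPM after siADARB1, overlapped between the groups and was not called (-0.06 ± 0.04, adjusted p = 0.311). STAT3, which also relays interleukin signals, was lower (-0.28 ± 0.04). The receptor subunits differed by little, with IFNAR1 lower (-0.14) and IFNAR2 higher (0.12). Over the 21 receptor, kinase, STAT and IRF genes 11 were higher and 4 lower, against 7 and 1 in the 19-library fit, and the median was 0.12. The higher count also became 7 without siADARB1 replicate 1. Interferon transcripts themselves were scarcely counted. Of 15 interferon genes only IFNE passed the filter on low counts, at 0.462 ± 0.061 CPM after siADAR and 0.737 ± 0.199 CPM after siADARB1, and it was not called (adjusted p = 0.106). Over the 3 siADAR libraries IFNB1 had 2 counts, IFNL1 had 1, IFNL2 had 5 and IFNL3 had 6, and over the 3 siADARB1 libraries each of them had 0.

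Chemokines and NF-κB targets were partly higher. Of 28 tested members 19 were higher and 1 was lower, with a median of 0.36. CXCL10, a chemokine for T cells that interferon induces, had 14.04, 16.66 and 21.35 CPM after siADAR, against 1.75, 1.62 and 2.09 CPM after siADARB1 (3.27 ± 0.16, adjusted p = 6.71e-09). CCL2, a monocyte chemokine, had 35.4, 36.7 and 38.7 CPM after siADAR, against 5.75, 5.54 and 5.81 CPM after siADARB1 (2.70 ± 0.06, adjusted p = 1.3e-11). BIRC3, an inhibitor of apoptosis and NF-κB target, had 322, 308 and 318 CPM after siADAR, against 98.8, 108 and 94.1 CPM after siADARB1 (1.65 ± 0.05). CCL2 and BIRC3 were tight within each group, while CXCL10 spread over the siADAR libraries as the antiviral genes did. CCL5 had 56 counts after siADAR and none after siADARB1, which allows up to 3 counts or 0.018 CPM over that group. CXCL11 averaged 1.44 ± 0.50 CPM after siADAR and 0.0759 ± 0.0753 CPM after siADARB1, its log2 difference of 4.08 becoming 4.90 without siADARB1 replicate 2. IL6 was the lower member, with 1.08, 1.498 and 1.406 CPM after siADAR, against 2.49, 2.86 and 1.82 CPM after siADARB1 (-0.86 ± 0.20, adjusted p = 0.00452).

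Genes of MHC class I antigen presentation were more often higher than lower, by small amounts. Of 20 genes 13 were higher and 2 lower (1 in the 19-library fit), none by 2-fold, with a median of 0.21. Their summed level overlapped between the groups, at 4760 to 4945 CPM after siADAR and 4779 to 4914 CPM after siADARB1. The immunoproteasome subunit PSMB9 (0.77 ± 0.10) and the peptide transporter TAP1 (0.54 ± 0.06) were higher, whereas the class I heavy chains HLA-B (-0.05) and HLA-C (-0.06) and B2M (0.09), their light chain, were not called. The response element was present in 11 of the 16 class I genes with a window (68.8%), a share near that of the antiviral effectors. Among 21 genes of apoptosis, necroptosis and pyroptosis 14 were higher and 2 lower, against 9 and 1 in the 19-library fit, and the lower count was also 1 without siADAR replicate 1 or 2 or any siADARB1 replicate and under the DESeq2 test. PMAIP1, which encodes the BH3-only protein NOXA, had 10.1, 10.8 and 10.7 CPM after siADAR, against 3.03, 3.23 and 3.06 CPM after siADARB1 (1.76 ± 0.09, adjusted p = 1.02e-08). CASP4, the caspase that senses lipopolysaccharide in the cytosol, was lower (-0.50 ± 0.04).

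Targets of the integrated stress response, the programme that PKR and other kinases of eIF2α set off, were more often lower than higher. Of 23 tested targets of the integrated stress response 6 were higher and 14 lower, against 2 and 9 in the 19-library fit, with a median of -0.25. ATF4, its central transcription factor, averaged 147 ± 1 CPM after siADAR and 174 ± 4 CPM after siADARB1 (-0.25 ± 0.04, adjusted p = 0.000117), and PSAT1, a serine synthesis enzyme under its control, was lower too (-0.63 ± 0.04). ATF3 (0.97 ± 0.07) and GDF15 (0.83 ± 0.04), a stress-induced cytokine, were higher. The chaperones of the endoplasmic reticulum differed by little, with 2 of 19 higher and 9 lower (0 and 3 in the 19-library fit) and a median of -0.08, the higher count becoming 1 under the DESeq2 test, with no filter on low counts, and without siADAR replicate 1 or 3 or siADARB1 replicate 1 or 3.

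Drug oxidation genes differed in both directions. Of 50 tested phase I genes 17 were higher and 19 lower, with a median of -0.03. CYP3A4, the main drug-oxidising cytochrome of adult liver, had 985, 944 and 1031 CPM after siADAR, against 159, 162 and 162 CPM after siADARB1. That difference of 6.12-fold (log2 2.61 ± 0.04) had the smallest adjusted p of the contrast (6.6e-13). Its neighbours in the gene cluster stood at 2.27 for CYP3A43, 0.53 for CYP3A7 and 0.13 for CYP3A5, with the caution that counts can be shared between such close paralogues. CYP2E1, which oxidises ethanol, had 85.4, 87.6 and 87.7 CPM after siADAR, against 42.5, 41.1 and 44.4 CPM after siADARB1 (1.03 ± 0.04, adjusted p = 1.11e-09). CYP1A2 was higher (0.98 ± 0.13), and CYP2C8 (-0.41 ± 0.04), CYP2B6 (-0.20 ± 0.05) and the alcohol dehydrogenase ADH4 (-0.68 ± 0.04) were lower. NR1I2, which encodes the pregnane X receptor that controls CYP3A4, was not called (-0.10, adjusted p = 0.0933).

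The CYP3A4 promoter is shown because its proximal receptor site is known. The everted repeat to which the pregnane X receptor binds, TGAACT and AGGTCA with any 6 bases between them, was searched on both strands and found in 3 of 27305 genes with a window (0.011%), 2 of them among the 40 phase I genes with one. Those 2, CYP3A4 (2.61) among them, had a median log2 difference of 1.37, and phase I genes without the repeat 0.01. Whether the repeat bears on the difference was not tested. CYP3A4 holds the repeat 169 bases before its start (minus strand, chr7:99784185-99784434, printed on the gene's strand with the repeat in capitals).
CYP3A4: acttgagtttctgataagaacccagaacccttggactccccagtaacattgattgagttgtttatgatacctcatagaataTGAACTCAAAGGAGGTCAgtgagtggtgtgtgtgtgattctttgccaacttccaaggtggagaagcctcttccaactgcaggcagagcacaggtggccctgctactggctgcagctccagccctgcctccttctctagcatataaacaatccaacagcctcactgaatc

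Conjugation enzymes and transporters were mixed as well. Of 38 tested phase II genes 12 were higher and 13 lower, and all 4 that were lower by 2-fold or more transfer a sulfate or methyl group. SULT1C2, a cytosolic sulfotransferase, had 53.05, 53.68 and 51.49 CPM after siADAR, against 127, 130 and 123 CPM after siADARB1 (-1.26 ± 0.04, adjusted p = 1.67e-10). SULT1B1, which acts on thyroid hormones (-1.23 ± 0.06), SULT1E1, the oestrogen sulfotransferase (-1.23 ± 0.11), and INMT, an N-methyltransferase (-1.70 ± 0.27), were the others, while the glucuronosyltransferase UGT2B11 (0.86 ± 0.15) was the highest. Of 26 transporters 9 were higher and 14 lower (9 lower in the 19-library fit), with a median of -0.15. SLC10A1, the bile salt transporter NTCP that hepatitis B virus uses to enter, had 9.49, 8.73 and 10.5 CPM after siADAR, against 4.63, 5.22 and 5.76 CPM after siADARB1 (0.89 ± 0.10, adjusted p = 1.78e-05). The efflux pump ABCG2 was also higher (1.21 ± 0.09), and the organic anion transporter SLC22A9 was lower (-0.60 ± 0.07). The groups were apart for each of these genes.

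Liver transcription factors were more often lower than higher after siADAR. Of 32 nuclear receptors and liver transcription factors 4 were higher and 20 lower, with a median of -0.29. HNF4A, which maintains hepatocyte identity, had 166, 173 and 176 CPM after siADAR, against 280, 272 and 268 CPM after siADARB1 (-0.67 ± 0.04, adjusted p = 2.95e-08). CEBPB, a factor of the acute-phase response, had 87.6, 88.4 and 85.8 CPM after siADAR, against 151, 144 and 143 CPM after siADARB1 (-0.74 ± 0.04). Both were low in all siADAR libraries, and NR1I3 (-0.75 ± 0.15), the constitutive androstane receptor, was lower with them, while the vitamin D receptor VDR was higher (0.52 ± 0.07). Because the cultures are bulk mixtures, fewer cells of a type and less RNA per cell cannot be told apart here.

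Acute-phase and complement genes were mostly lower. Of 33 tested members 26 were lower and 1 was higher, which became 2 without siADARB1 replicate 2, with a median of -0.32. CRP, the C-reactive protein, had 30.9, 35.0 and 32.9 CPM after siADAR, against 85.3, 88.6 and 87.0 CPM after siADARB1 (-1.40 ± 0.05, adjusted p = 3.12e-10). SAA4 (-1.11 ± 0.05), C9 (-0.99 ± 0.12), of the membrane attack complex, and HP, which encodes haptoglobin (-0.43 ± 0.03), were lower as well, and the single higher member was ITIH3 (0.72 ± 0.10), an inter-alpha-trypsin inhibitor chain. Within the siADAR group replicate 1 was the lowest library in 31 of the 33 (93.9%), beside 34% of all genes tested. Among 40 secreted proteins and hepatocyte markers 5 were higher and 16 lower, against 3 and 10 in the 19-library fit, with a median of -0.09. Their called share was 52.5%, beside 48.6% of protein-coding genes. ALB (-0.28 ± 0.03) and APOB (-0.52 ± 0.03), the main protein of very low density lipoprotein, were lower, TTR, the thyroxine carrier, was not called (0.00, adjusted p = 1), and APOA4, an apolipoprotein of the triglyceride-rich particles, was higher, with 12.1, 11.8 and 12.5 CPM after siADAR, against 1.99, 2.07 and 2.04 CPM after siADARB1 (2.57 ± 0.09, adjusted p = 5.14e-10).

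Genes of intermediary metabolism were more often lower than higher. Of 28 tested genes of the urea cycle and amino acid breakdown 1 was higher and 18 were lower, with a median of -0.22. TDO2, which opens the tryptophan ring, had 78.8, 77.3 and 87.7 CPM after siADAR, against 177, 200 and 181 CPM after siADARB1 (-1.20 ± 0.06, adjusted p = 6.71e-09), and KMO, further down the kynurenine pathway, was lower as well (-0.93 ± 0.07). CPS1, the entry enzyme of the urea cycle, was lower (-0.64 ± 0.03) and GLUL, glutamine synthetase, was the single higher member (0.40 ± 0.04). Of 37 fatty acid genes 10 were higher and 15 lower, against 5 and 8 in the 19-library fit. The synthetic enzymes FASN (-0.67 ± 0.04) and GPAM (-0.74 ± 0.04) were lower, and CPT1A, the gate of mitochondrial oxidation, was higher (0.71 ± 0.04). Among 18 genes of glucose handling 4 were higher (2 in the 19-library fit) and 11 lower, with the liver glycogen synthase GYS2 at -0.70 ± 0.10. Bile acid genes were 3 higher and 6 lower of 19, with CYP7A1, the rate-limiting enzyme of the classical pathway, at -0.47 ± 0.04. Nuclear-encoded subunits of oxidative phosphorylation were 0 higher and 13 lower of 27 (6 lower in the 19-library fit, median -0.13), COX5A being the lowest (-0.58 ± 0.05), and of the 13 mitochondrially encoded mRNAs none was called in edgeR, DESeq2 or limma voom, with 1 at an unadjusted p under 0.05, whereas 1 was lower with no filter on low counts and 4 were lower without siADARB1 replicate 1. Mitochondrial mRNA made up 6.76 to 6.97% of counts after siADAR and 5.98 to 7.36% after siADARB1. The called share was 47.4% for bile acid genes and 48.1% for nuclear-encoded oxidative phosphorylation, beside 48.6% of protein-coding genes.

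**Figure D2:**
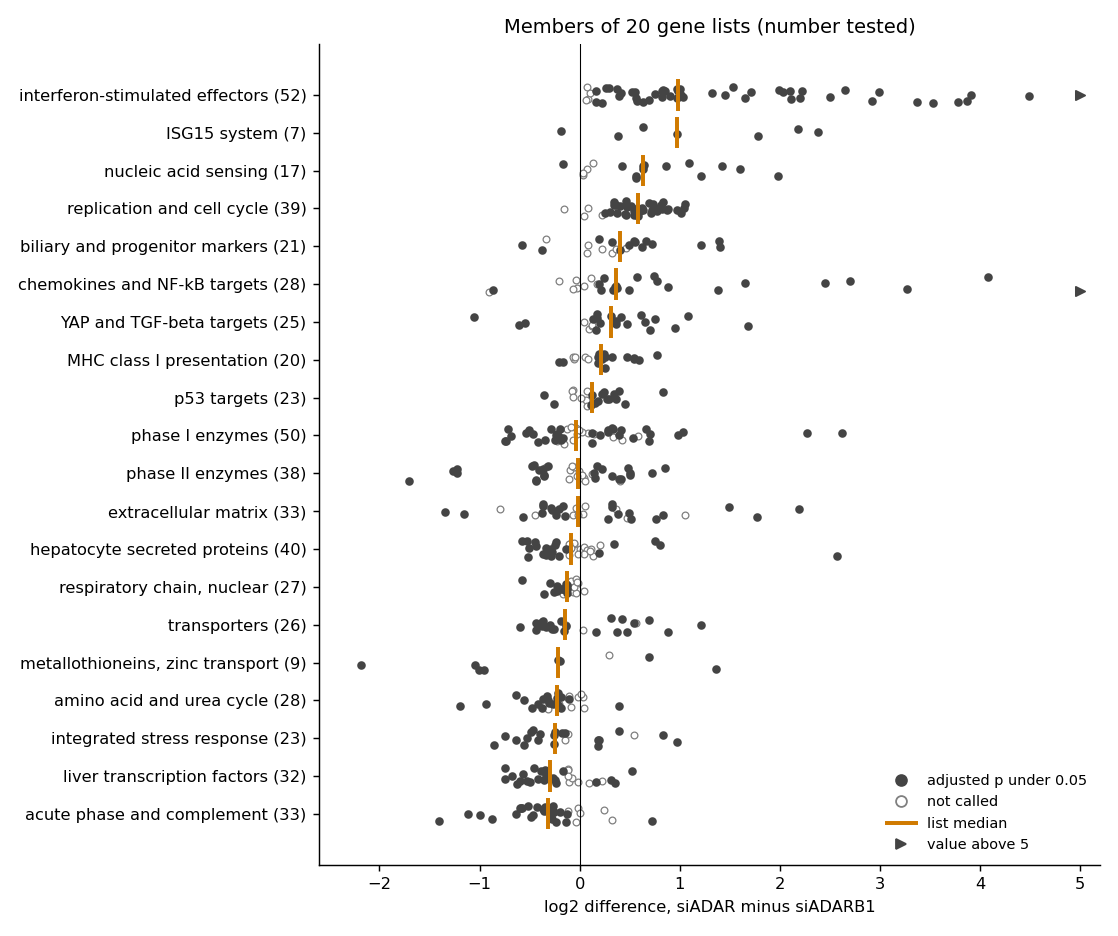
Log2 difference, siADAR minus siADARB1, for every tested member of 20 gene lists, one point a gene, filled where the adjusted p was under 0.05, with the list median as an orange bar and 2 values above 5 (RSAD2 and CCL5) drawn at the edge. The antiviral effectors lie to the right of 0 (median 0.98) and the acute-phase genes mostly to the left (median -0.32), while phase I enzymes spread to both sides.

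Metallothionein and zinc transport genes were more often lower than higher after siADAR. Of 9 tested metallothioneins and zinc transporters 6 were lower and 2 higher. MT2A, a metallothionein that binds zinc and copper, had 131, 142 and 147 CPM after siADAR, against 302, 275 and 287 CPM after siADARB1 (-1.04 ± 0.05, adjusted p = 6.44e-09). MT1X (-1.01 ± 0.05), MT1E (-0.95 ± 0.04) and MT1F (-2.18 ± 0.20) were lower with it, although counts can be shared among these near-identical genes. The 2 higher members were zinc transporters. SLC39A10, a plasma membrane zinc importer, had 54.9, 48.2 and 50.9 CPM after siADAR, against 19.6, 20.4 and 19.8 CPM after siADARB1 (1.37 ± 0.05, adjusted p = 1.11e-09), and the exporter SLC30A1 stood at 0.69 ± 0.04. No library of one group reached the other group's range in MT2A or SLC39A10. The metal response element TGCNCNC, the site of the zinc-sensing factor MTF1, was searched on both strands and occurs in 59.4% of all genes with a window and more than once in 27.6%. Of the 14 listed metallothioneins and zinc transporters 7 had a window, and all 7 held the element, 5 of them more than once. Whether the element bears on the direction of a difference was not tested. MT2A (plus strand, chr16:56608334-56608583) is shown for its 7 matches upstream of the start, the nearest 8 bases before it, in capitals here on either strand.
MT2A: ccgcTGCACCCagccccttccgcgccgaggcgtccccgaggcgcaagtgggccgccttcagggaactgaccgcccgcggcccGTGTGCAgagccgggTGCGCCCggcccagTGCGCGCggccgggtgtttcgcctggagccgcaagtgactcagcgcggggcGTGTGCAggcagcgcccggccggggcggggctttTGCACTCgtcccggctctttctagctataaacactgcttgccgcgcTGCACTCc

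Iron and redox genes gave 12 higher (7 in the 19-library fit) and 5 lower of 22. FTH1, the ferritin heavy chain that stores iron, had 916, 957 and 942 CPM after siADAR, against 2065, 2226 and 2201 CPM after siADARB1 (-1.21 ± 0.04, adjusted p = 1.67e-10). FTL, the light chain, was higher (0.21 ± 0.04), so the chains of ferritin differed in opposite directions. The thioredoxin reductase TXNRD1 was higher (0.72 ± 0.03).

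DNA replication and cell division genes were higher after siADAR. Of 39 members 35 were higher and none lower, 3 by at least 2-fold, with a median of 0.58 and a summed level of 1119 to 1223 CPM after siADAR, against 798 to 834 CPM after siADARB1. RRM2, the regulated subunit of ribonucleotide reductase, had 70.8, 82.8 and 77.3 CPM after siADAR, against 35.9, 38.0 and 38.8 CPM after siADARB1 (1.04 ± 0.05, adjusted p = 1.49e-08). The spindle checkpoint kinase BUB1B (1.05 ± 0.08), topoisomerase TOP2A (0.79 ± 0.06) and MKI67, the proliferation marker Ki-67 (0.73 ± 0.06), were higher with it. Replicate 1 was the lowest library of its group in 32 of the 39 genes after siADAR (82.1%) and in 26 after siADARB1 (66.7%). Over all genes tested these shares were 34% after siADAR and 30.5% after siADARB1. None of the 32 members with a promoter window held the interferon element. Of 23 p53 targets 13 were higher and 2 lower, against 6 and 1 in the 19-library fit, with CDKN1A, which encodes the cell cycle inhibitor p21, at 0.35 ± 0.04.

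Biliary, matrix and YAP-related genes were higher in part. Of 21 tested biliary and progenitor markers 12 were higher and 2 lower, which became 1 without siADAR replicate 3 or siADARB1 replicate 1, with a median of 0.41 and a sum of 1502 to 1554 CPM after siADAR, against 955 to 984 CPM after siADARB1. KRT19, a keratin of bile duct cells, had 681, 710 and 669 CPM after siADAR, against 301, 286 and 305 CPM after siADARB1 (1.21 ± 0.04, adjusted p = 2.93e-10). SPP1, osteopontin, was higher (0.54 ± 0.05), and CDH6 was lower (-0.58 ± 0.12). The keratins KRT7 (0.32) and KRT23 (-0.34) were not called, while EPCAM, PROM1 and CFTR were too low to be tested. The part of a changed cell mixture in these differences was not tested. Of 33 tested matrix genes 11 were higher and 12 lower (7 lower in the 19-library fit). POSTN, the matrix protein periostin, had 125, 115 and 119 CPM after siADAR, against 24.4, 28.7 and 25.5 CPM after siADARB1 (2.19 ± 0.06, adjusted p = 5.56e-11), and THBS1, thrombospondin, averaged 2930 ± 57 CPM after siADAR and 1041 ± 11 CPM after siADARB1 (SD, n = 3 each; 1.49 ± 0.03). The stromelysin MMP3 was higher (1.77 ± 0.09), and COL3A1, a fibrillar collagen, was lower, at 10.97, 9.851 and 9.76 CPM after siADAR, against 25.6, 24.9 and 27.3 CPM after siADARB1 (-1.34 ± 0.06). Of 25 YAP and TGF-β targets 18 were higher (11 in the 19-library fit) and 3 lower, with a median of 0.31. The tissue factor gene F3 (1.68 ± 0.06) and the differentiation inhibitors ID3 (1.08 ± 0.07) and ID1 (0.95 ± 0.05) were higher, and the activin subunit INHBE was lower (-1.06 ± 0.06).

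Markers of other cell types were counted as well. Of 18 stellate and mesenchymal markers 14 were tested, 4 higher and 2 lower, with a sum of 265 to 271 CPM after siADAR and 232 to 234 CPM after siADARB1; THY1, GFAP, NGFR and CNN1 fell below the filter. The other 8 tested were not called, and the list median was 0.0009. The called share was 42.9%, beside 48.6% of protein-coding genes. DES, the muscle intermediate filament, had the largest difference and averaged 4.21 ± 0.73 CPM after siADAR and 0.720 ± 0.126 CPM after siADARB1 (2.57 ± 0.19). TWIST1 was lower, at 17.7 ± 0.7 CPM after siADAR and 24.5 ± 1.6 CPM after siADARB1 (-0.47 ± 0.06). Of 12 endothelial markers 3 were tested, and all 3 were called. KDR was lower (-0.62 ± 0.06) and made up most of the sum of 120 to 141 CPM after siADAR and 197 to 208 CPM after siADARB1, while the scarce PECAM1 (0.86 ± 0.21) and TEK (0.94 ± 0.32) were higher. The higher count was 0 in the 19-library fit and 1 without siADAR replicate 1 or 2 or siADARB1 replicate 2. Of 16 leukocyte markers 6 were tested, 4 higher and 2 lower, with a median of 0.87, and PTPRC, CD3E and LYZ fell below the filter. The higher members were scarce, among them MARCO (2.19 ± 0.49) with 0.631 ± 0.340 CPM after siADAR and 0.137 ± 0.056 CPM after siADARB1, and the lower ones were CD68 (-0.35 ± 0.05) and CD14 (-0.32 ± 0.09). The list summed to 41.8 to 44.8 CPM after siADAR and 50.59 to 53.03 CPM after siADARB1. In the 19-library fit 1 was higher and 1 lower. The higher count was 2 without siADAR replicate 2 or 3 or siADARB1 replicate 1, and the lower count was 1 without siADAR replicate 1 or siADARB1 replicate 1 or 3. ALB, the defining hepatocyte transcript, stood at 26230 ± 514 CPM after siADAR and 31950 ± 1204 CPM after siADARB1. Other hepatocyte genes given above differed in both directions. APOB, HNF4A and CPS1 were lower, CYP3A4 (2.61) and CYP2E1 were higher, and TTR was not called.

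**Figure D3:**
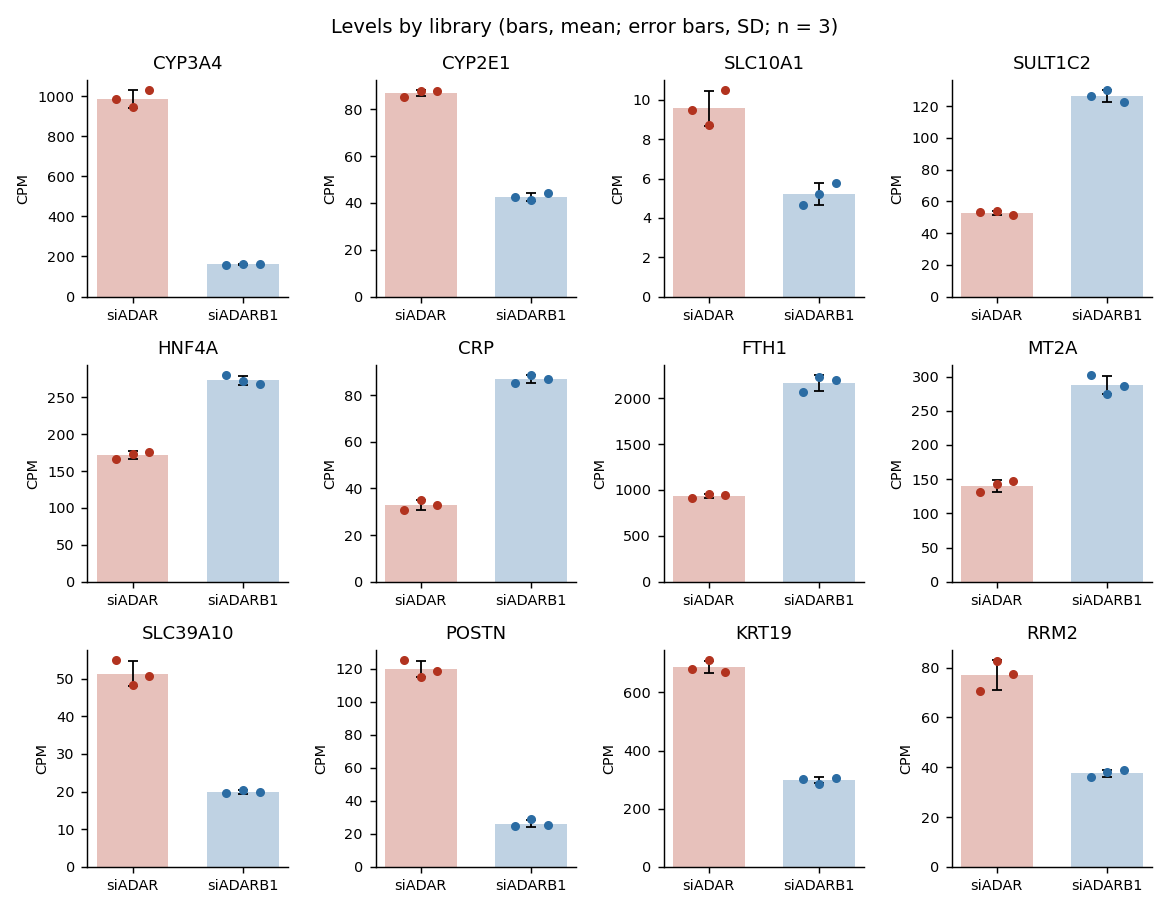
CPM of 12 liver, metal, matrix, biliary and replication genes in the 3 siADAR libraries (left bar of each panel) and the 3 siADARB1 libraries (right bar), with points for libraries, bars for means and error bars for the SD. CYP3A4 averages 987 CPM after siADAR and 161 CPM after siADARB1, FTH1 averages 938 CPM after siADAR and 2164 CPM after siADARB1, and in no panel do the groups overlap.

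Transcripts known to be edited differed in both directions in abundance. Of 26 listed genes with known recoding or 3' end sites 13 were higher and 3 lower, against 6 and 1 in the 19-library fit, with a median of 0.11. CTSS, whose 3' end carries edited Alu repeats, was higher (0.68 ± 0.08), while GRIA2, the glutamate receptor subunit that is the classic ADAR2 substrate, was lower at 0.477 ± 0.140 CPM after siADAR and 1.33 ± 0.08 CPM after siADARB1 (-1.49 ± 0.25). These are gene totals, and editing itself was not measured.

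Which side of the control siRNA a difference lay on varied between groups of genes. Both knockdowns are read here from the same 3 siNC libraries, so the values of a gene share their control and are given side by side only. Beside siNC, siADAR differed in 8223 of 21747 genes tested (37.8%) and siADARB1 in 3632 (16.7%). After siADAR 20.2% of genes were higher and 17.6% lower than siNC, and after siADARB1 8.25% were higher and 8.45% lower. Of the 52 antiviral effectors 51 were higher and none lower after siADAR (median 0.96), against 2 higher and 4 lower after siADARB1 (median 0.00). For a first set of genes the siADARB1 value lay near the control. After siADAR MX1 stood at 3.62, FTH1 at -1.17, HNF4A at -0.67, KRT19 at 1.24 and THBS1 at 1.47. After siADARB1 MX1 stood at -0.17, FTH1 at 0.04, HNF4A at 0.00, KRT19 at 0.03 and THBS1 at -0.03, and none of these 5 was called after siADARB1. For a second set the siADARB1 libraries lay away from the control. After siADAR CRP stood at -0.25, SULT1C2 at -0.47, SLC39A10 at 0.59, RRM2 at 0.24 and CYP2E1 at 0.34, whereas after siADARB1 CRP stood at 1.16, SULT1C2 at 0.79, SLC39A10 at -0.78, RRM2 at -0.80 and CYP2E1 at -0.69. MT2A, at 0.62 after siADAR and 1.66 after siADARB1, and MT1E, at 0.74 after siADAR and 1.69 after siADARB1, were called above siNC in both knockdowns. SLC10A1, at -0.34 after siADAR and -1.23 after siADARB1, was called below siNC in both. CXCL10 (2.09 after siADAR and -1.18 after siADARB1), IFIT1 (2.79 after siADAR and -0.59 after siADARB1) and POSTN (1.35 after siADAR and -0.84 after siADARB1) were called above siNC after siADAR and below it after siADARB1. CFHR3, a complement regulator, was called in the opposite orientation, at -1.77 after siADAR and 0.70 after siADARB1. Replication genes were 30 higher and none lower of 39 after siADAR, against 2 higher and 14 lower after siADARB1, and phase I genes were mostly below siNC in both, 11 higher and 28 lower after siADAR and 2 higher and 31 lower after siADARB1.

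**Figure D4:**
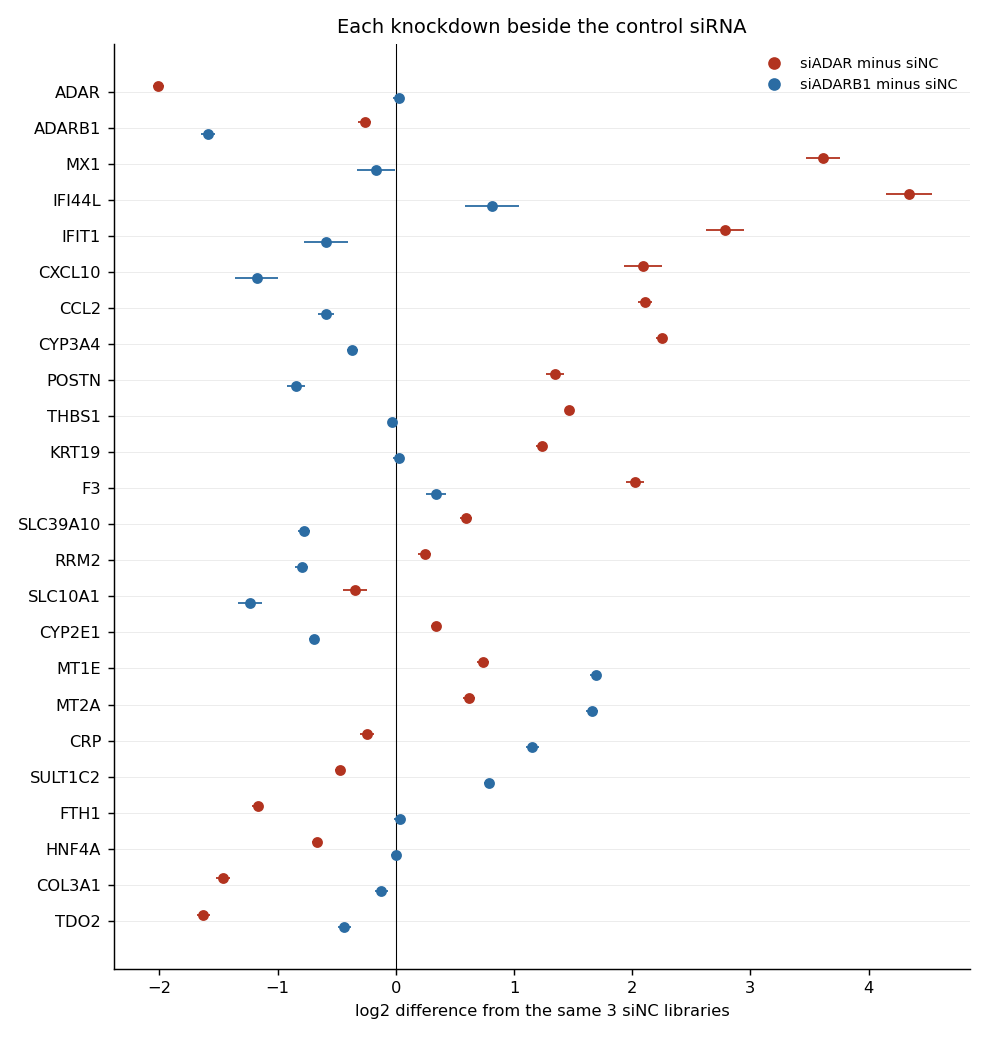
Log2 difference of siADAR (red) and siADARB1 (blue) from the same 3 siNC libraries for 24 genes, with bars for the standard error. MX1, THBS1, KRT19, FTH1 and HNF4A have the blue point near 0 and the red point away from it, whereas CXCL10, CRP, MT2A, SLC39A10, RRM2 and SLC10A1 have the blue point away from 0.

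The named extremes beyond the interferon genes were of mixed kinds. IGFL1, of the insulin growth factor-like family, had 14.9, 16.6 and 14.5 CPM after siADAR, against 0.510, 0.519 and 0.616 CPM after siADARB1 (4.82 ± 0.12, adjusted p = 4.72e-11). KRT14, a basal keratin, averaged 7.91 ± 0.33 CPM after siADAR and 0.641 ± 0.310 CPM after siADARB1 (3.69 ± 0.21). On the lower side CASP14, a caspase of skin, had 11 counts over the siADAR libraries and 183 over the siADARB1 libraries (-3.91 ± 0.42). LRRTM3, a synaptic adhesion protein, had 0.122, 0.295 and 0.100 CPM after siADAR, against 1.89, 1.87 and 1.47 CPM after siADARB1 (-3.35 ± 0.34), and its value was -3.94 without siADAR replicate 2. HBA2, an alpha globin, spread widely (0.0837 ± 0.111 CPM after siADAR and 1.15 ± 0.87 CPM after siADARB1), and its log2 difference of -3.63 became -5.62 without siADAR replicate 1 and -2.92 without siADARB1 replicate 3, with an adjusted p of 0.00224 that became 0.0853 in the 19-library fit.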

How the data were processed

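Total RNA, depleted of ribosomal RNA and sequenced from directional libraries per the labels' protocols, was measured in 19 libraries, of which 6 enter the contrast. STAR, Salmon and GRCh38.p14 are named in the submitters' processing notes, and no label states the strand setting of the counting. The authors deposited expected counts per gene, estimated counts that need not be whole (94.82% of values lay within 0.005 of a whole number), for 78894 genes, 61463 of them with a symbol. These expected counts were rounded, by at most 0.5, and tested with edgeR 4.0.16 in R 4.3.3: default filter on low counts, TMM scaling, a quasi-likelihood test with group as the only term, and Benjamini-Hochberg adjustment over all 20754 genes tested. The common precision had 4 residual degrees of freedom. CPM values were computed from the same scaled totals and are compared between libraries, not between genes. Each knockdown was set beside siNC in a fit of the 9 libraries of the first batch. Intervals and floors cover counting error only, as no molecular identifiers are stated.

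Same-numbered libraries of the groups deviated together with correlations of -0.004, 0.011 and -0.023, so the numbers were not taken to pair samples. The replication genes did share an order by number. Replicate 2 was the highest in 66.7% of them after siADAR and in 56.4% after siADARB1. Whether same-numbered libraries share a source was not tested. Alternatives were DESeq2 1.42.0, DESeq2 size factors, limma voom 3.58.1, no filter, a test against 1.5-fold, a replicate block, the batch 1 fit with siNC, all 19 libraries, and each library left out. The fit was tested on simulated data with known changes. The members, gene lists and tests were chosen with earlier results of these data known. The rule for named genes took the editing enzymes, the 10 most different called genes in each direction with a mean of at least 1 CPM and groups that do not overlap, the member of each list most different in each direction, and the 4 most different genes on opposite sides of siNC in each orientation; other list members are examples chosen after their values were seen. Promoter windows came from RefSeq (GRCh38.p14; 35116 windows for 27305 genes, from 250 bases before to 50 after a start), matched by symbol, and a gene counted as holding a motif where any of its windows did. Close paralogues, such as the CYP3A, UGT, SULT and metallothionein genes and HBA1 and HBA2, may share counts, and so may overlapping genes.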

Additional observations from a re-analysis of the deposited data

How the results depend on the processing

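The direct contrast called 4096 genes higher and 3678 lower after siADAR. Fitting all 19 libraries in 1 model gave 2288 higher and 2230 lower, and 4438 of its 4518 calls were shared with the main result, all in the same direction; the cause was not tested. The test against 1.5-fold asks for a larger difference by construction and called 464 higher, 255 lower and 431 with at least 2-fold. A replicate block gave 3918 higher and 3471 lower, with 7260 of 7389 calls shared, changed no call of a gene named by the rule, and moved the lower count of cell death genes to 1. Leaving out each library in turn gave 3536 to 3904 higher, 3103 to 3321 lower and 707 to 820 with at least 2-fold. DESeq2, its size factors, limma voom, no filter and the batch 1 fit stayed within 1.5 times of each of these counts. Beside siNC, the 19-library fit called 2539 higher and 2503 lower after siADAR, and 485 higher and 581 lower after siADARB1. Leaving out a library there gave 3770 to 4422 higher and 3282 to 3808 lower after siADAR, and 1247 to 1738 higher and 1341 to 1782 lower after siADARB1.

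For genes named by the rule 1197 values under alternatives kept their direction and side of the threshold, and 49 lost the call, none reversing. Outside the 1.5-fold test the calls lost belonged to HBA2, MAVS, ARIH1, CALR, FGF21, DNAJB9, CRELD2, PCK1 and TEK in the 19-library fit, and to PCK1 and TEK when a library was left out. Beside siNC, 1667 values of genes named by the rule kept their direction and side of the threshold under alternatives. A call was lost in 79, 30 of them in the 19-library fit, and gained in 6. The call of IFIT1 below siNC after siADARB1 had an edgeR adjusted p of 0.0445. Some uncalled values changed sign when a library was left out, 28 times in all. After siADAR these were CTSS (-0.089 to 0.022), CRELD2 (-0.058 to 0.089) and INSIG1 (-0.020 to 0.036). After siADARB1 they were ADARB2 (-0.030 to 0.14), MX2 (-0.083 to 0.28), KRT14 (-0.39 to 0.30), CASP14 (-0.23 to 0.14), HBA2 (-1.15 to 0.24), SLC5A12 (-0.0355 to 0.21), IRF7 (-0.17 to 0.021), IL6 (-0.11 to 0.20), FGF21 (-0.31 to 0.10), GYS2 (-0.023 to 0.099), FTH1 (-0.015 to 0.079), DES (-0.27 to 0.0052), MARCO (-0.18 to 0.46) and COX5A (-0.0705 to 0.0185). Beside siNC after siADAR, RSAD2 (6.66) gave 8.43 without siNC replicate 1 and 5.92 without siNC replicate 3, CXCL11 (3.04) gave 3.65 without siNC replicate 3, CMPK2 (4.96) gave 4.33 without siADAR replicate 3, HBA2 (-4.07) gave -6.06 without siADAR replicate 1 and -3.40 without siNC replicate 3, and LRRTM3 (-2.66) gave -3.25 without siADAR replicate 2. RSAD2, CMPK2, CXCL11, LRRTM3 and HBA2 averaged under 1 CPM in a group, and the part of depth in these shifts was not tested.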

Other observations

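Several gene families, which share members such as KRT19 and S100A4 with the lists above, also differed in direction. They were chosen after their values were seen and are given as values only, beside 19.7% of tested genes higher and 17.7% lower. Of the 13855 protein-coding genes tested, the closer comparison for these families, 3710 were higher and 3018 lower. Of 19 tested keratins 11 were higher and 1 lower after siADAR, with a median log2 difference of 0.70. KRT4, a keratin of moist epithelia, averaged 32.9 ± 0.7 CPM after siADAR and 6.38 ± 0.82 CPM after siADARB1 (2.38 ± 0.07), and KRT15 (2.59), KRT17 (2.26), KRT16 (2.16) and KRT80 (1.77) were higher as well. The simple-epithelial keratins of hepatocytes differed by less, KRT8 by 0.27 and KRT18 by 0.30, and KRT5 was lower (-0.49). Of 8 clade B serpins 6 were higher and none lower, among them SERPINB2, an inhibitor of plasminogen activators, with 8.57 ± 1.10 CPM after siADAR and 1.53 ± 0.13 CPM after siADARB1 (2.47 ± 0.13). Of 12 S100 calcium-binding proteins 7 were higher and 2 lower, with S100A3 at 1.47 and S100A4 at 1.46. CFHR3, a complement regulator, was lower, at 2.68 ± 0.85 CPM after siADAR and 14.7 ± 1.1 CPM after siADARB1 (-2.47 ± 0.16).

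Broad families showed smaller differences. Of 78 cytosolic ribosomal protein genes 2 were higher and 34 lower (median -0.11), of 435 ZNF zinc finger genes 32 were higher and 123 lower (median -0.11), and of 14 alpha and beta tubulins 9 were higher and 1 lower (median 0.34). By annotation 48.6% of 13855 protein-coding genes were called, against 20.9% of 1767 long noncoding RNAs and 13.3% of 4361 genes with no RefSeq match.

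Some neuronal genes differed, SYN1 and TAC1 among them at low levels. Of the 12 neuronal genes tested 50% were called, a share near the 48.6% of protein-coding genes. SYN1, a synaptic vesicle protein, averaged 1.12 ± 0.21 CPM after siADAR and 2.78 ± 0.06 CPM after siADARB1, with log2 differences from siNC of 0.50 after siADAR and 1.80 after siADARB1. TAC1, the precursor of substance P, averaged 0.675 ± 0.152 CPM after siADAR and 1.68 ± 0.11 CPM after siADARB1. The presynaptic adhesion gene NRXN3 was higher, at 40.8 ± 0.7 CPM after siADAR and 21.5 ± 0.5 CPM after siADARB1 (0.92 ± 0.04). Other genes called on opposite sides of siNC were CD180, a toll-like receptor relative (2.56 after siADAR and -0.89 after siADARB1), TNFRSF9, a costimulatory receptor (1.48 after siADAR and -1.38 after siADARB1), HEPACAM, a cell adhesion protein (-0.99 after siADAR and 0.84 after siADARB1), and SDK1 (-1.30 after siADAR and 0.49 after siADARB1).

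The remaining lists gave mixed counts. Of 24 cholesterol genes 10 were higher and 5 lower (3 and 3 in the 19-library fit), with INSIG1, which retains the sterol sensor in the endoplasmic reticulum, at 0.53 ± 0.03 and the sterol reductase TM7SF2 at -0.53 ± 0.04. Of 25 immediate early and MAP kinase feedback genes 7 were higher and 7 lower (4 lower in the 19-library fit), with the phosphatase DUSP5 at 0.72 ± 0.07 and EGR1 at -0.73 ± 0.04. Of 16 insulin-like growth factor genes 5 were higher and 6 lower, IGFBP4 standing at -0.90 ± 0.04, and of 12 neuronal genes 1 was higher (2 without siADAR replicate 2) and 5 were lower.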
